A study of Mus musculus with 4 samples.

Results

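The Zscan4 genes of the mouse are a set of similar copies on chromosome 7. Every row of the region annotation whose name starts with Zscan4 was taken, on any contig, which gave 5 rows for 5 genes (Zscan4a, Zscan4b, Zscan4c, Zscan4d and Zscan4f) among 26161 gene symbols in 50703 gene rows. The annotation, a table in 12-column BED layout on the mm10 build, belongs to a series that profiled RNA polymerase I by CUT&Tag, in which an antibody guides a transposase to the chromatin around its target. The 4 libraries came from C64 mouse embryonic stem (ES) cells grown on gelatin in medium with serum. In 2 libraries the cells were untreated (control), and in 2 they were given 500 nM auxin (IAA) for 6 h, a plant hormone used to degrade proteins that carry an auxin-inducible degron. The labels used here name no such protein and do not say whether C64 is a single clone or whether replicates were separate cultures. The annotation gives the same fixed coordinates for both groups, with no value per library, so depth is unknown and nothing is said here about occupancy, expression or an effect of auxin.

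Zscan4 proteins join a SCAN domain, which pairs such proteins with each other, to C2H2 zinc fingers, which bind DNA. In the embryo the genes are switched on at the two-cell stage, and in ES cell cultures they mark a small and transient fraction of cells that resembles that stage. They are known for their part in telomere lengthening in ES cells and for binding TG/CA repeats. The state of the C64 cells was not measured in the table, so the description of the genes as markers of two-cell-like cells is background only.

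The promoters show how alike the copies are and where they differ. RefSeq promoter windows on GRCm38.p6, the assembly of the mm10 build, were found for 4 of the 5 genes (Zscan4b, Zscan4c, Zscan4d and Zscan4f), and in each of them the start site was the 5' end of the annotated row. Each window runs from 250 bases before the start to 50 bases from it onwards. The windows lie at chr7:10905001-10905300 (Zscan4b, minus strand), chr7:11005495-11005794 (Zscan4c, plus strand), chr7:11166099-11166398 (Zscan4d, minus strand) and chr7:11397665-11397964 (Zscan4f, plus strand). They are printed 5' to 3' on the gene's strand, and capitals mark the positions, among those that all 4 aligned windows cover, at which they are not all the same. Differences near the ends, where fewer than 4 windows overlap, are left in lower case.
Zscan4b: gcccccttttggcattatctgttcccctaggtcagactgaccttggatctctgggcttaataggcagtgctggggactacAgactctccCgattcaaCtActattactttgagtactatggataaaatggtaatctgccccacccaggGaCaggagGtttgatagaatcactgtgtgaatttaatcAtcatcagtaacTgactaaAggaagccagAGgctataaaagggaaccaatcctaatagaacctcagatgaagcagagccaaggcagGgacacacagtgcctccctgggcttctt
Zscan4c: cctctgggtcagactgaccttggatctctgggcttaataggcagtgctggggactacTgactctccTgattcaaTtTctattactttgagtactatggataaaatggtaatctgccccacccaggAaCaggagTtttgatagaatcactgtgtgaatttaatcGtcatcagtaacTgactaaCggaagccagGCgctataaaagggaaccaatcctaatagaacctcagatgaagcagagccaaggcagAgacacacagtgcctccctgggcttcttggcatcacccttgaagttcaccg
Zscan4d: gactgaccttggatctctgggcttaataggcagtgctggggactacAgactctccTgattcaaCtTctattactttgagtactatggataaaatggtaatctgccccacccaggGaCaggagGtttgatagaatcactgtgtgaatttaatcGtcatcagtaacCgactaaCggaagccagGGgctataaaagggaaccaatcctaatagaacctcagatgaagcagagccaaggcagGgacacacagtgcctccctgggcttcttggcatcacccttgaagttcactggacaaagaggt
Zscan4f: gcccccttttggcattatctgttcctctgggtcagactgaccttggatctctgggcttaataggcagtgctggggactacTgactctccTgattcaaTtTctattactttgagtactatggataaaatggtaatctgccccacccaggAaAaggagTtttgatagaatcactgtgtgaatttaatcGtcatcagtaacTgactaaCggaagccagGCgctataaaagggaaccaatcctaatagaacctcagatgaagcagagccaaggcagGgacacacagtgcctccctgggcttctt

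Slid along each other without gaps to the offset with the fewest differences, the 4 windows had 266 positions in common, of which 253 (95.1%) were the same in all 4 and 13 were not. The longest stretch that was identical in all 4 ran for 55 bases. Over their own overlaps the pairs were 95.3% to 99.3% identical, with a median of 97.3%. Zscan4c and Zscan4f, both on the plus strand, were the closest pair, with 2 differences in 277 overlapping bases (99.3%) and an identical run of 127 bases. Counted from 1 at the 5' end of the Zscan4b window, these were C151A and A273G, with the Zscan4c base first. Zscan4b and Zscan4d, both on the minus strand, came next with 6 differences in 266 bases (97.7%), namely C90T, A100T, A187G, T199C, A206C and A216G, with the Zscan4b base first. Zscan4b and Zscan4c were the least alike, with 13 differences in 277 bases (95.3%), and Zscan4b and Zscan4f had 13 in 300. In each of these pairs 11 of the 13 lay where all 4 windows overlap and are in capitals above. Zscan4c and Zscan4d had 8 differences, of which 7 lay there.

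The 13 variable positions of that common stretch fell into few patterns. At 5 of them (81, 98, 149, 157 and 217) Zscan4b and Zscan4d had one base and Zscan4c and Zscan4f another, so that the copies divided by strand. At another 5 (90, 100, 187, 206 and 216) Zscan4b alone differed from the other three. Zscan4c, Zscan4d and Zscan4f each stood alone at 1 position (273, 199 and 151). The windows therefore hold positions that tell each copy from the others, although few of them are private to Zscan4c, Zscan4d or Zscan4f.

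**Figure D1:**
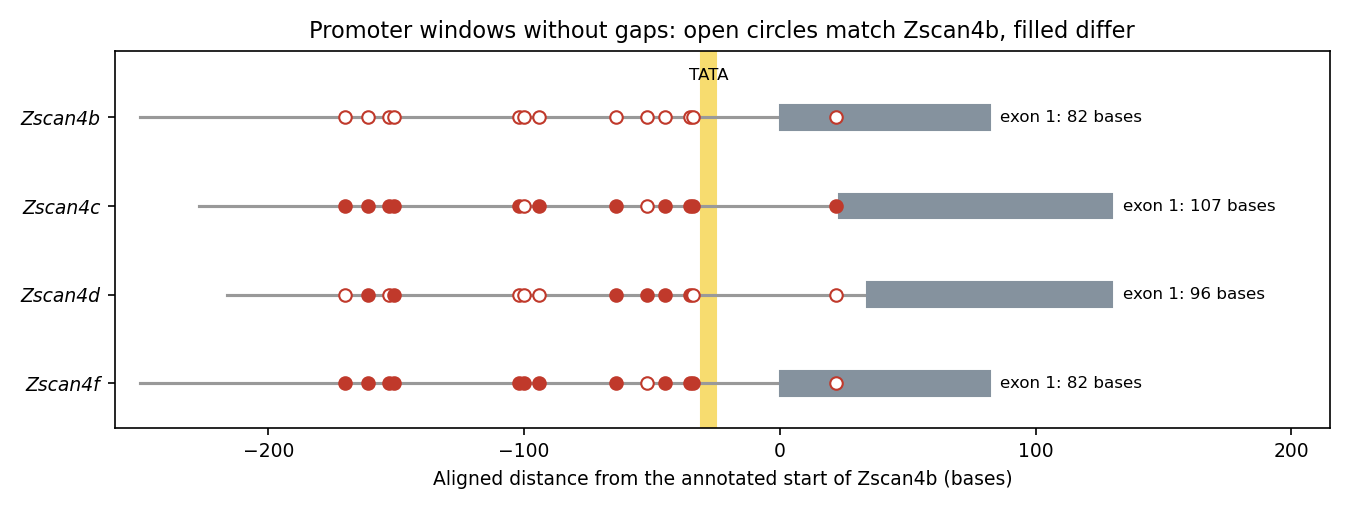
Variable positions in the stretch that all 4 aligned promoter windows cover, plotted by distance in bases from the annotated start of Zscan4b. Lines are the windows, grey boxes are first exons, open circles match Zscan4b and filled circles differ from it, and the yellow band marks TATAAA. The circles of Zscan4c and Zscan4f are nearly the same, and the first exons end at 82 bases in Zscan4b and Zscan4f but at 130 in Zscan4c and Zscan4d.

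All 4 promoters held the TATA box letters TATAAA once, on the gene's strand, and the bases after it in the stretch shown were the same in all copies. The 30 bases around it are shown with those letters in capitals.
Zscan4b: gaagccagaggcTATAAAagggaaccaatc
Zscan4c: gaagccaggcgcTATAAAagggaaccaatc
Zscan4d: gaagccaggggcTATAAAagggaaccaatc
Zscan4f: gaagccaggcgcTATAAAagggaaccaatc

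Of 32851 RefSeq promoter windows of the same length, 13.6% held TATAAA on either strand and 8.32% on the gene's own strand. The first base of the motif lay at -31 from the annotated start in Zscan4b and in Zscan4f. It lay at -54 in Zscan4c and at -65 in Zscan4d. Only 1.75% of all windows had the motif on the gene's strand beginning between -35 and -25, and Zscan4b and Zscan4f were among them. On the ungapped alignment the motif stood at the same place in all 4, and the distances differed with the annotated start, which was 23 bases further downstream in Zscan4c and 34 bases in Zscan4d than in Zscan4b and Zscan4f. A run of CACACACA, the repeat that Zscan4 proteins are known to bind, was in 0 of the 4 promoters on either strand and in 4.09% of all windows. The shorter run ACACACA stood in each of the 4, which are too alike to count as separate cases. These matches describe letters in a window and are not binding sites.

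Short sequences from these promoters are often shared between copies. Of the 251 windows of 50 bases in each promoter, 171 in Zscan4b (68.1%), 172 in Zscan4d (68.5%), 101 in Zscan4c (40.2%) and 73 in Zscan4f (29.1%) occurred in that copy alone among the 4. Part of this comes from the ends, where the printed windows do not overlap. Within the positions that all 4 have in common, 139 of 217 were found in Zscan4b alone (64.1%), 138 in Zscan4d (63.6%), 78 in Zscan4c (35.9%) and 50 in Zscan4f. Zscan4f thus had the fewest short sequences of its own. Only 6 windows of 50 bases were present in all 4. No other gene in the promoter table shared a run of 20 bases with a Zscan4 promoter on either strand (0 genes). Other parts of the genome were not searched. The sources used here give neither the read length nor the treatment of reads that align to several places.

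All 5 genes lay on the assembled chromosome 7, in the order a, b, c, d, f. Zscan4a spanned 4825 bases on the minus strand (10794241 to 10799065). Zscan4b spanned 4311 bases on the minus strand (10900740 to 10905050). Zscan4c spanned 4803 bases on the plus strand (11005745 to 11010547). Zscan4d spanned 4506 bases on the minus strand (11161643 to 11166148), and Zscan4f 4404 bases on the plus strand (11397915 to 11402318). The strands were therefore mixed, with 3 genes on the minus and 2 on the plus strand. Zscan4a and Zscan4b pointed the same way, Zscan4b and Zscan4c faced away from each other, Zscan4c and Zscan4d faced each other, and Zscan4d and Zscan4f faced away from each other.

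The genes were small islands in a wide interval. From the first base of Zscan4a to the last of Zscan4f the interval measured 608078 bases, of which the 5 genes covered 22849 bases (3.76%) and their exons 10108 (1.66%). Between neighbours lay 101674 bases (a to b), 100694 (b to c), 151095 (c to d) and 231766 (d to f), with a median of 126384.5. The widest gap was 2.30 times the narrowest. The gaps on both sides of Zscan4b were nearly equal.

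**Figure D2:**
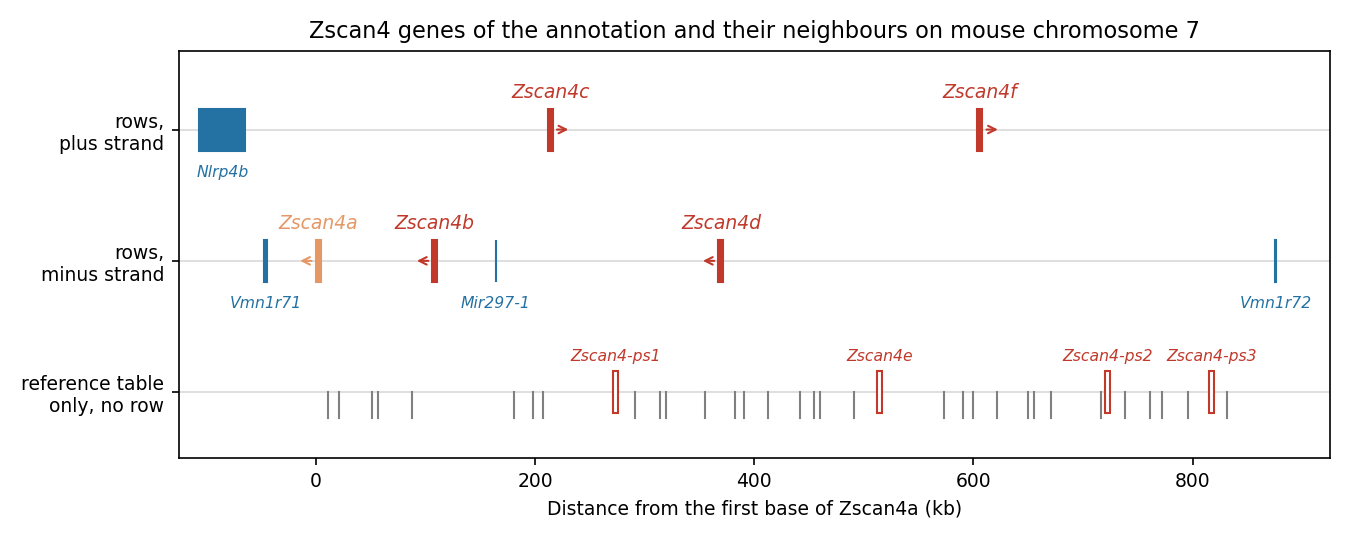
Map of the Zscan4 cluster by distance in kb from the first base of Zscan4a, with rows of the annotation by strand and, in the lowest line, genes that only the reference table lists. Red boxes are coding Zscan4 genes, the orange box is Zscan4a, blue boxes are neighbours with a row, open red boxes are Zscan4 loci without a row, and grey ticks are other reference genes. The 5 genes span 608078 bases, and open boxes stand in the c to d and d to f gaps.

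The annotation left 4 further Zscan4 loci without a row. The RefSeq gene table of GRCm38.p6 lists 9 genes with such a name, and their order from Zscan4a is a, b, c, ps1, d, e, f, ps2, ps3. Zscan4-ps1 (11065139 to 11069691) lies in the gap between Zscan4c and Zscan4d, and Zscan4e (11306369 to 11310682) between Zscan4d and Zscan4f. Zscan4-ps2 (11514287 to 11518688) and Zscan4-ps3 (11609308 to 11614112) lie beyond Zscan4f. All 4 are of the class pseudogene and have no RefSeq transcript. The lack of a row is general to the class, since 0 of 9955 genes of the class pseudogene in the whole table had a row, against 427 of 487 transcribed pseudogenes (87.7%). With these loci counted, the cluster measured 819872 bases and the median distance between neighbours became 96322.5 bases (54591 to 140220).

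The loci without a row were about as long as the genes with one. Zscan4e measured 4314 bases and Zscan4b 4311. Zscan4-ps2 measured 4402 bases and Zscan4f 4404, while Zscan4-ps3 measured 4805 and Zscan4c 4803. Zscan4-ps1 measured 4553 bases. A name can mislead here, because the reference table lists Zscan4d as a synonym of Zscan4c as well as the symbol of its own gene.

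Each gene had 1 transcript row with 4 exons. Exon 2 measured 472 bases and exon 3 160 bases in all 5 genes, and intron 3 measured 84 bases in all 5. An exon of 472 bases directly followed by one of 160 occurred in 5 symbols of the whole annotation, which were the Zscan4 genes. Taken singly, the sizes were less particular, with an exon of 472 bases in 46 symbols, one of 160 bases in 882 and an intron of 84 bases in 419. Among 20992 coding symbols on the assembled chromosomes 8.25% had exactly 4 exons in their longest coding row.

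Intron 2 was the longest part of each gene and varied little. It measured 1846 bases in Zscan4a, 1817 in Zscan4b, 1836 in Zscan4c, 1823 in Zscan4d and 1836 in Zscan4f. Zscan4c and Zscan4f, the pair with the most similar promoters, thus had the same size in intron 2. Intron 3 was equal in all 5 genes, and intron 1 differed between this pair (607 and 655 bases).

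The first exon, which is wholly untranslated in the coding genes, differed in both its ends. It measured 84 bases in Zscan4a, 82 in Zscan4b, 107 in Zscan4c, 96 in Zscan4d and 82 in Zscan4f. Intron 1 measured 638 bases in Zscan4a, 656 in Zscan4b, 607 in Zscan4c, 607 in Zscan4d and 655 in Zscan4f. Placed on the aligned promoters, exon 1 ended 82 bases after the Zscan4b start in Zscan4b and Zscan4f, and 130 bases after it in Zscan4c and Zscan4d. Exon 2 began at the same aligned distance of 737 bases in Zscan4c, Zscan4d and Zscan4f, and at 738 in Zscan4b. The annotation therefore places the end of exon 1 48 bases further downstream in Zscan4c and Zscan4d than in Zscan4b and Zscan4f. The sequence between the promoter windows and exon 2 was not compared. This grouping, c with d and b with f, is not among the groupings of the variable promoter positions. At 5 of those c went with f and b with d, and at another 5 Zscan4b stood alone.

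**Figure D3:**
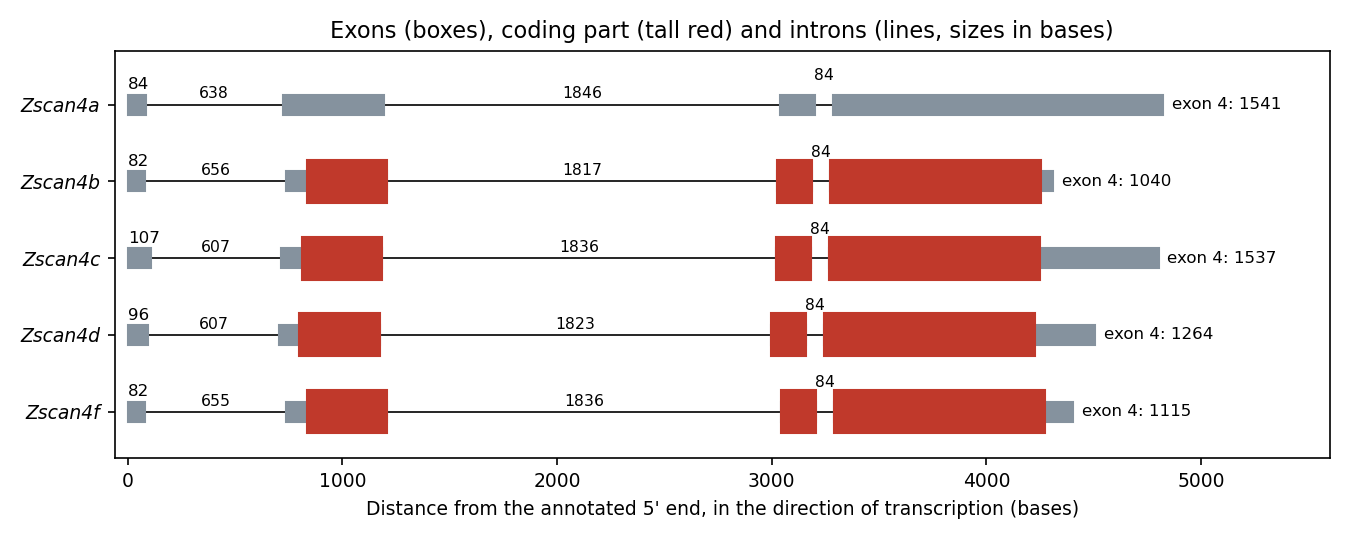
Exon structure of the 5 Zscan4 genes, each drawn from its annotated 5' end in bases along the direction of transcription, with grey boxes for exons, tall red boxes for coding parts and lines for introns. Exons 2 and 3 and intron 3 have the same sizes in all 5 genes, while exon 4 runs from 1040 bases in Zscan4b to 1541 in Zscan4a.

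The coding part was nearly the same in the 4 genes that have one. It held 1521 bases, or 507 codons with the stop codon, in Zscan4c, Zscan4d and Zscan4f. In Zscan4b it held 1518 bases, or 506 codons. In all 4 genes it began 97 bases into exon 2 and took 375 bases of that exon and all 160 of exon 3. The part in exon 4 was 986 bases in Zscan4c, Zscan4d and Zscan4f and 983 in Zscan4b, so the codon by which Zscan4b was shorter falls in the last exon. A coding length of 1521 bases was found in 14 of the 20992 coding symbols, 3 of which are Zscan4 genes. On the genome the coding span, introns included, ran from 10900797 to 10904215 in Zscan4b (3419 bases), 11006556 to 11009996 in Zscan4c (3441), 11161921 to 11165348 in Zscan4d (3428) and 11398749 to 11402189 in Zscan4f (3441).

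Zscan4a had no coding part, and the reference table classes it as a transcribed pseudogene. Its exons 2 and 3 had the sizes of those in the coding genes, and its exon 4, at 1541 bases, was 4 bases longer than that of Zscan4c. Its lack of a coding part therefore does not show in the exon sizes.

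The annotated 3' untranslated region (3' UTR) was where the copies differed most in length. It held 57 bases in Zscan4b, 551 in Zscan4c, 278 in Zscan4d and 129 in Zscan4f. These lengths rest on 1 transcript row per gene, and the sequence after the stop codons was not compared. The median over coding symbols of the annotation was 682 bases, above all 4, and 10.3% of them had 57 bases or fewer. The 5' UTR was more even, with 179 bases in Zscan4b, 204 in Zscan4c, 193 in Zscan4d and 179 in Zscan4f, against a median of 132. Exon 4 accordingly measured 1040 bases in Zscan4b, 1537 in Zscan4c, 1264 in Zscan4d and 1115 in Zscan4f.

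No Zscan4 gene had a copy on another contig. The annotation used 176 contigs besides the assembled chromosomes and the rDNA contig, 7 of them belonging to chromosome 7, and Zscan4 rows on them numbered 0. Of the 26125 symbols on assembled chromosomes, 5.19% had a further locus elsewhere and 64.7% had a single row, as each Zscan4 gene did.

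Inside the interval the annotation placed 1 other gene. Mir297-1, a microRNA gene on the minus strand (10958437 to 10958512), lay 53386 bases from Zscan4b and 47232 bases from Zscan4c, in the gap between these divergent genes. Its hairpin of 76 bases, from RefSeq on the same assembly, is shown because it holds near its 5' end a run of UGUA repeats, here in capitals.
Mir297-1 hairpin: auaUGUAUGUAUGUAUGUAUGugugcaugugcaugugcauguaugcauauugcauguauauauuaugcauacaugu

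The other 5 rows named Mir297 stood together on chromosome 2, within 44911 bases. With 6 symbols in 608078 bases the interval was near the middle for its chromosome. Among 233 windows of that length laid end to end on chromosome 7, the median was 7 symbols, and 45.5% held 6 or fewer. Over all assembled chromosomes the median was 4 symbols in 4360 windows, and 65.05% held 6 or fewer. The interval was cut to begin and end at Zscan4 genes, unlike these windows.

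The cluster sits in a region of vomeronasal receptor genes. On the side of Zscan4a the nearest rows were Vmn1r71, a pheromone receptor gene with a single exon (44702 bases away), Nlrp4b, a member of the NLR family (64072 bases away, 9 exons), and Vmn1r70 (159757 bases). On the side of Zscan4f the nearest were Vmn1r72 (267280 bases away), Vmn1r73 (353938) and Vmn1r74 (444456), all with a single exon. The distance to the next row was thus several times longer beyond Zscan4f, where the reference table has Zscan4-ps2 and Zscan4-ps3. The promoters of these neighbours were no more than 35.5% identical to that of Zscan4b at the best ungapped position, so the likeness among Zscan4 promoters did not extend to them.

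In the reference table the interval is far fuller. It lists 30 genes there, 6 of which had a row, and these are the 6 with a curated transcript. The rest are 22 of the class pseudogene, Zscan4-ps1 and Zscan4e among them, and 2 of the class misc_RNA. Several of these recur at like distances from different Zscan4 loci, and the examples below were picked after their values were seen. At lower coordinates than Zscan4c stand Gm18122 (841 bases long, 3803 bases away), Gm7789 (7476 bases long, 9762 away) and Gm7786 (1456 bases long, 29941 away). At lower coordinates than Zscan4f stand, in the same order, Gm18123 (841 bases long, 3780 away), Gm45598 (7662 bases long, 9504 away) and Gm45596 (1448 bases long, 30105 away). The distances from Gm18122 and Gm18123 differ by 23 bases, which is the offset between the annotated starts of Zscan4c and Zscan4f.

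Zscan4-ps2 resembles Zscan4f in part of its surroundings. Gm18639 and Gm18640, both 1412 bases long, follow Zscan4f at 13046 bases and Zscan4-ps2 at 13050 bases. Gm18124, 798 bases long, precedes Zscan4-ps2 by 3637 bases. The next gene before it, Gm7207, is 45644 bases from Zscan4-ps2. No gene thus stands there at the distances of Gm45598 and Gm45596 from Zscan4f. A second arrangement recurs at lower coordinates than Zscan4b, Zscan4d and Zscan4e. Lower coordinates lie beyond the 3' ends of Zscan4b and Zscan4d, on the minus strand, but before the 5' ends of Zscan4c and Zscan4f. Gm4903 (827 bases long) precedes Zscan4b by 54547 bases, Gm4157 (827 bases long) precedes Zscan4d by 53265, and Gm5996 (829 bases long) precedes Zscan4e by 57207. Nearer to the same 3 genes stand Gm7836 (940 bases long, 49041 away), Gm3774 (936 bases long, 47755 away) and Gm9652 (940 bases long, 51728 away). Some of these genes have another Zscan4 locus closer by on their other side. Zscan4a is 46300 bases from Gm4903, and Zscan4-ps1 is 37859 bases from Gm4157 and 43260 from Gm3774. Gm18638 and Gm19683, both 1131 bases long, precede Zscan4b and Zscan4e by 18338 and 20942 bases. All 3 distances are longer at Zscan4e than at Zscan4b, by 2604 to 2687 bases, and both distances at Zscan4d are shorter than at Zscan4b. Lengths and distances were compared here, not the sequences of these genes.

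**Figure D4:**
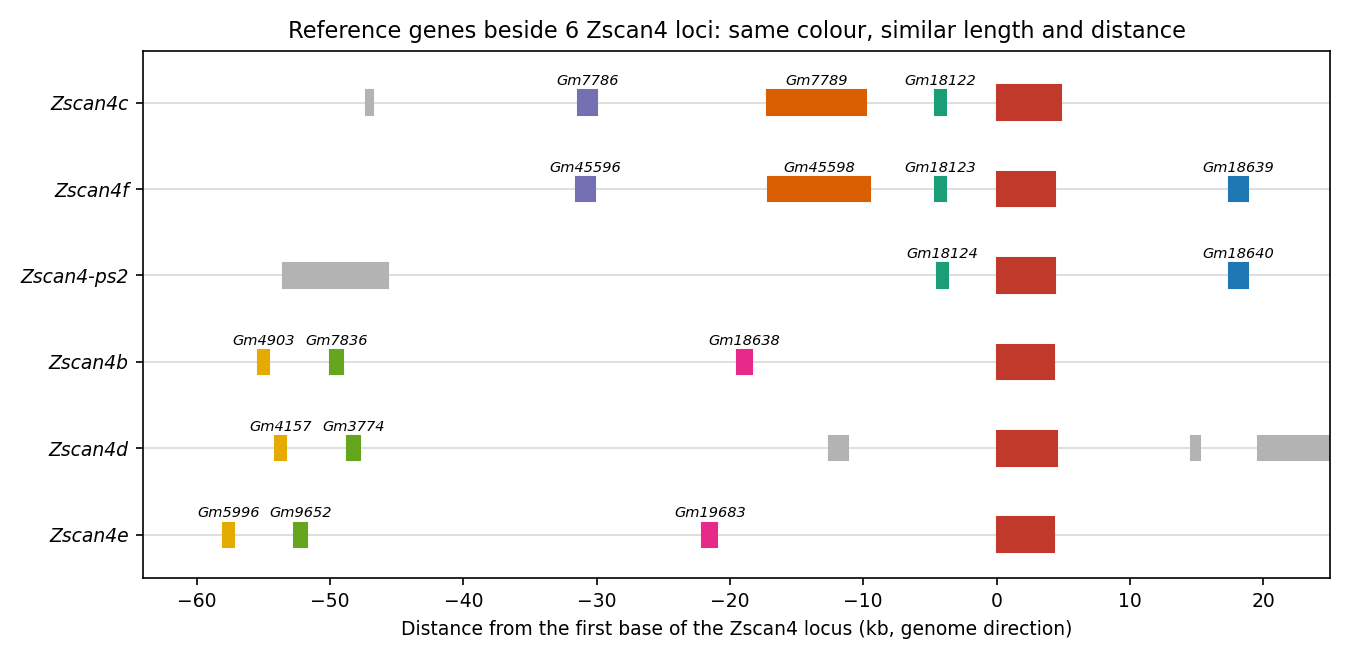
Genes of the reference table beside 6 Zscan4 loci, by distance in kb from the first base of the locus along the genome, with the Zscan4 locus in red paired genes in the same colour and other genes in grey. Zscan4c and Zscan4f share 3 genes of like length and distance on their left, and Zscan4b and Zscan4e another 3, of which Zscan4d has a like pair. Some genes drawn before Zscan4b and Zscan4d are nearer to another Zscan4 locus.

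Other genes with a Zscan name all spanned more of the genome. The annotation had 12 of them on 7 chromosomes, 4 on chromosome 7. The nearest to the cluster, Zscan18, lay 1365773 bases beyond Zscan4f, followed by Zscan22 (1495490 bases) and Zscan2 (69458612 bases), and Zscan5b lay 4554828 bases before Zscan4a. All 12 spanned more than the longest Zscan4 gene, from 9483 bases in Zscan12 to 54662 in Zscan30, with a median of 14232.5 against 4506. They had 3 exons (Zscan2 and Zscan22) to 8 (Zscan20) in their fullest row, with a median of 6. Zscan12 was the most like the Zscan4 genes in these counts, with 1 row, 4 exons and a coding length of 1506 bases, but it lacked the pair of 472 and 160 base exons, as did all 12. Their coding lengths ran from 1401 bases in Zscan26 to 3093 in Zscan20, with a median of 1650, and were longer than 1521 bases in 8 of 12. In coding length the Zscan4 genes thus lay within the range of the others, and in genomic span they lay below it. In 3' UTR the others ran from 165 bases to 2789, a range that holds Zscan4c and Zscan4d but not Zscan4b and Zscan4f. Of the 12, 9 had several rows, and 1 (Zscan20) had a locus on another contig.

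**Figure D5:**
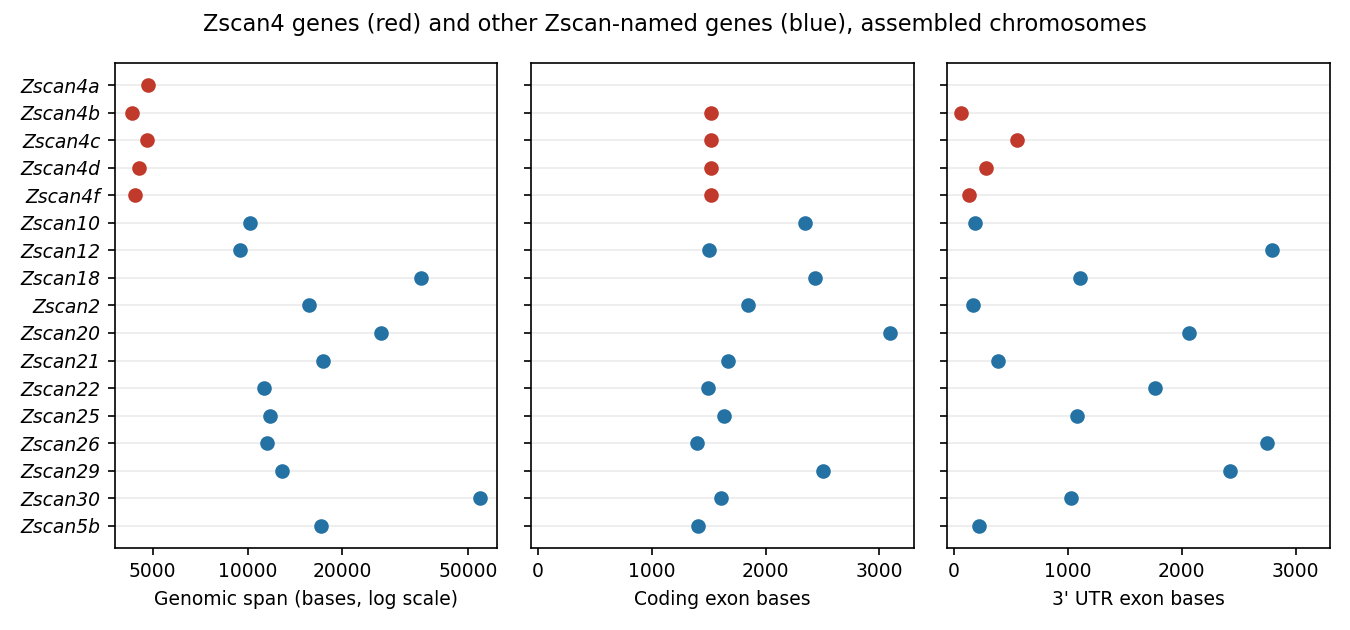
Genomic span on a log scale, coding exon bases and 3' UTR bases of the 5 Zscan4 genes (red) and 12 other Zscan-named genes (blue), 1 point per gene. The red points lie between 4311 and 4825 bases in span, to the left of every blue point, while the coding lengths overlap.

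Genes known to be active with Zscan4 were mostly present. Of a list of 40 symbols for the two-cell state, 33 had a row and 3 more had one under a newer name (Pramel17, Pramel19 and Pramel31). The 4 others were Duxf3 and Dux, names for the gene of a homeodomain factor that activates two-cell genes, and Eif1ad8 and BC061212. Among all protein-coding genes the share with a row was 95.98%. The share in this list was lower, with or without the newer names counted. The list held 10 genes on chromosome 7, namely 5 Usp17l deubiquitinase genes (Usp17la to Usp17le) and 5 Obox homeobox genes, and none of them lay in the Zscan4 interval. Usp17lc and Usp17ld had the same coding length of 1638 bases, on opposite strands. Tcstv1 and Tcstv3, a pair on chromosome 13, spanned 1399 and 1400 bases on opposite strands, with coding lengths of 516 and 510 bases. Zfp352, on chromosome 4, had 2 exons and a coding length of 1656 bases.

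Regulators of the two-cell-like state were complete, with 25 of 25 symbols, near the share of 95.98% among all protein-coding genes. Dppa2 and Dppa4, which activate Dux, were both on the plus strand of chromosome 16, with 7 exons each and coding lengths of 906 and 891 bases. Also present were Zscan10, the chromatin assembly factor genes Chaf1a and Chaf1b, the histone demethylase gene Kdm1a, Trim28, which encodes a corepressor, and Ehmt2, which encodes a histone methyltransferase. Trim28 alone of the list lay on chromosome 7 (13024152 to 13031032). All 18 telomere genes had a row, including the telomerase genes Tert and Terc and the genes of the telomere proteins Terf1, Terf2, Terf2ip, Pot1a, Pot1b and Acd. These counts concern annotation only, in which most protein-coding genes had a row, so full lists do not set these genes apart.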

How the data were processed

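The source was 1 region table of the whole series in 12-column BED layout. The deposited score was 0 throughout, and the other columns used give positions in bases and numbers of exons. The mm10 build is named in the submitters' processing notes, as are Bowtie2, FastQC, bedtools and deepTools. The sources used here do not give their versions or roles, or say how the table was made. Depth is unknown.

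Rows were read with Python 3.11.15. Starts were converted to positions counted from 1. Exons, introns and coding parts were taken from block sizes and the coding bounds, and coding length includes the stop codon. Rows of one symbol, contig and strand that shared a base were merged. Coding and UTR lengths of other genes came from the row with the longest coding part on an assembled chromosome. Exon numbers of neighbours and other Zscan genes came from the row with the most exons. Promoter windows were aligned without gaps at the offset with the lowest share of differences and at least 150 bases of overlap. These routines were tested on simulated data. Figures were drawn with matplotlib 3.10.9.

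The members, lists and rules were chosen with earlier results of these data known. The text names every member, up to 25 other loci of the interval, 3 on each side, the extremes among other Zscan genes, and the first 8 of each list with a row. Genes named outside this rule were chosen after their values were seen. These are Zscan5b, Zscan12, Zscan18 and Zscan30, the Obox and Pramel genes, list symbols without a row, and reference genes without a row. No test was run, as there is no value per library. Alternatives covered contigs, matching, distance, interval width, strand, exons and coding span.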

Additional observations from a re-analysis of the deposited data

How the results depend on the processing

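No paired analysis was possible because no column belongs to a library. Of 15 alternatives, 5 left the result as reported, namely 5 Zscan4 rows on assembled chromosomes only and with identical intervals counted once, 5 symbols when case was ignored or when other contigs were dropped, and a median of 4 exons over all rows. The 5 symbols became 9 when symbols or synonyms in the reference gene table were counted. The median distance of 126384.5 bases became 131198.5 from start to start. With the reference loci that have no row, an alternative chosen after seeing the data, it became 96322.5 bases. The share of the interval inside Zscan4 genes fell from 3.758% to 1.662% for exons only. The count of 1 other symbol in the interval became 3 with 100 kb added on each side, 0 on the strand of the nearest Zscan4 gene and 0 for coding loci. It became 23 by the reference table, which was chosen after seeing the data. The median coding length of 1521 bases became 3434.5 with introns included. The median promoter identity of 97.3% became 97.37% over the positions common to all 4 windows, also chosen after seeing the data. Protein identity had been planned and was not run, as protein sequences were not used here. Coordinates carry no replicate error, so no spread is given.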

Other observations

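Among loci picked after their values were seen, the reference table repeats exact lengths in and around the cluster. Of the genes there other than Zscan4 loci, 6 pairs had the same length to the base, at 827, 829, 841, 940, 1131 and 1412 bases. The members of each pair have different nearest Zscan4 loci, which the spacing of these loci alone gives for most genes so far apart. Those of 829 bases, Gm5996 and Gm7848, precede Zscan4e by 57207 bases and Zscan4-ps3 by 43099, distances less alike than those given above for the other pairs. Whether these pairs are also alike in sequence was not tested.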
